A study of Mus musculus with 15 samples.

Results

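The earliest and the latest time points of CELF2 induction in adult mouse ventricle were compared gene by gene, with 3 hearts at 12 h and 3 hearts at 7 d. The comparison covered 10606 of the 16199 genes in the expression table, namely those whose 6 values here averaged 1 RPKM or more. RPKM counts reads per kilobase of coding sequence and is scaled to the mapped reads of each library. It thus adjusts for gene length and library size, but its scale still differed between hearts, as given below.

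All 6 mice carried both MHCrtTA and TRECUGBP2 on an FVB background, were 14 to 16 weeks old and ate food with 2 g/kg doxycycline. The heart-specific Myh6 promoter drives the doxycycline-dependent activator rtTA, so the FLAG-tagged human CELF2 transgene is switched on in cardiomyocytes and not in the other cells of the ventricle. Atria and a piece of the apex had been cut away, and cages had held no food for a few hours before the doxycycline food arrived. No heart in this contrast lacked the transgene. The 9 other hearts of the study, 3 MHCrtTA hearts without TRECUGBP2 after 72 h of the same food (called control here), 3 induced hearts at 24 h and 3 at 72 h, lent their spread to the statistical fit and are quoted beside some genes. Because the tissue is bulk ventricle, fewer cells of a type and less RNA per cell cannot be told apart.

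CELF proteins bind GU-rich RNA, where they change exon choice in the nucleus and promote mRNA decay in the cytoplasm. Muscleblind proteins act on many of the same transcripts, often in the opposite direction. CELF levels are high in the embryonic heart and fall after birth, so induction in the adult returns such a protein to mature cardiomyocytes. Loaded or injured cardiomyocytes are known for making natriuretic peptide and skeletal muscle actin mRNA, and for shifting their fuel and contractile genes.

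Promoters were examined for the immediate early and the circadian clock genes, because several members of each list were called between 12 h and 7 d, with the values given further on. Sequences are from RefSeq (GRCm38.p6), run from 250 bases before to 50 bases after the start site and are given 5′ to 3′ with matches to the searched letters in capitals. Dusp1 (chr17:26508423-26508722, minus strand) and Btg2 (chr1:134079106-134079405, minus strand) are immediate early genes that were lower at 7 d, whereas Tef (chr15:81802423-81802722, plus strand) and Per3 (chr4:151044616-151044915, minus strand) are clock genes that were higher. Capitals mark CACGTG (the E-box read by CLOCK and BMAL1) in Dusp1 and Tef, TGACGTCA (the cyclic AMP response element) in Dusp1 and Btg2, and TTATGTAA (the D-box read by DBP, TEF and HLF) in Per3.
Dusp1: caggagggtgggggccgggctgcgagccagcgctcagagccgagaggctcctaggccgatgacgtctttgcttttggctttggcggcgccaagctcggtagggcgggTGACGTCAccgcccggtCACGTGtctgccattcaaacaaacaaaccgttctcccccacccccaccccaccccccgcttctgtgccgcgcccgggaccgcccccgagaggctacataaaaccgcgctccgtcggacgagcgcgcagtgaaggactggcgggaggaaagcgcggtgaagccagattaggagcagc
Btg2: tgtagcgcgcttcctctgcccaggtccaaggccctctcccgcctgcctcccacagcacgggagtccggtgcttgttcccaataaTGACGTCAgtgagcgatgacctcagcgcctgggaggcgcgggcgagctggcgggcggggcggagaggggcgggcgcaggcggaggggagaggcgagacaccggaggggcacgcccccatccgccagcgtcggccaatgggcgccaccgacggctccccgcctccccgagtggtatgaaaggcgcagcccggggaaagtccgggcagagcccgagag
Tef: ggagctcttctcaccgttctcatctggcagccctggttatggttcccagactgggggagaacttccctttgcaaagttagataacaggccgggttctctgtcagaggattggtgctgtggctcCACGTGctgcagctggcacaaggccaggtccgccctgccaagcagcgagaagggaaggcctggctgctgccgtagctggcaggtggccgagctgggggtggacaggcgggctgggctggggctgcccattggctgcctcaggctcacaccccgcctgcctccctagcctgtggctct
Per3: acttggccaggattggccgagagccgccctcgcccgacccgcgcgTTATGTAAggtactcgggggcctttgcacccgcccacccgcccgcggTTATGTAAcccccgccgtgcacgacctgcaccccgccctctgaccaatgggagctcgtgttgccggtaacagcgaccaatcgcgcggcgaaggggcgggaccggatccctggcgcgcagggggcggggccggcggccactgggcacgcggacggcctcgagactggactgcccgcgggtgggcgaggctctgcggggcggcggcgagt

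Of the 10606 genes, 8509 had at least 1 promoter in the RefSeq table. The promoters shown were taken from called genes with a match. CACGTG occurred on either strand in 7 of 23 clock genes and 7 of 25 immediate early genes, against 12.1% of all 8509 genes. Of these carriers, only Tef among the clock genes and Dusp1 and Klf4 among the immediate early genes were called. TGACGTCA occurred in 1 of 23 clock genes (Hlf, which rose) and 4 of 25 immediate early genes, against 3.61% of all genes. Of those 4 immediate early genes, Dusp1 and Btg2 were called, both lower. For TTATGTAA the only match among both lists was Per3, which holds it at 2 places, and 0.646% of all genes have a match. None of the 3 motifs contains another of them, and these matches describe letters in the windows without a test.

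The Y-linked mRNAs in the table summed to 0.03 to 0.07 RPKM in the 3 hearts at 12 h and to 58.6 to 77.9 RPKM in the 3 hearts at 7 d, so sex and time of induction cannot be told apart within these 6 hearts. Sample titles carry a number code of unstated meaning, abbreviated here to A, B and C. Hearts 1, 2 and 3 at 12 h have codes A, B and B, hearts 1, 2 and 3 at 7 d codes A, C and C, and the values of each gene are always given in that order. Heart 1 at 12 h stood apart from the other two for some genes, such as Clock, Celf2, Mbnl1 and Pdk4. Read depth is unknown, so precision rests on the spread between hearts. The RPKM scale itself differed, with median-ratio factors of 0.943 to 0.981 at 12 h and 0.995 to 1.11 at 7 d, and the median log2 change of all genes was 0.13 rather than 0. With median-ratio scaling that median was 0.0075. The cardiomyocyte identity of the tissue was plain at both times, since Myh6 alone measured 6879, 6949 and 7192 RPKM at 12 h and 5424, 5552 and 5767 RPKM at 7 d.

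Celf2 mRNA, the induced gene, measured 192, 92.5 and 84.5 RPKM at 12 h and 359, 353 and 261 RPKM at 7 d. Every 7 d heart lay above every 12 h heart, and heart 1 was the highest of its group at both times. The 7 d mean was 2.64 times the 12 h mean (exact two-sided permutation test, n = 3 against 3, p = 0.1, the smallest p this design allows). In the fit across all genes the log2 change was 1.48 ± 0.26 (SE) with an adjusted p of 0.00182. Control hearts held 9.82 ± 1.37 RPKM (SD, n = 3), and the 24 h and 72 h hearts 149.8 ± 33.2 and 230.3 ± 26.4 RPKM, so Celf2 was already above the control level at 12 h. The mouse gene lies at chr2:6460751-7002348 (mm9, minus strand), and reads of the human transgene and the mouse gene cannot be separated in the table. Without heart 1 at 12 h the ratio was 3.67, and between the code A hearts alone it was 1.87.

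Between 12 h and 7 d, 1260 of 10606 genes (11.9%) rose and 411 (3.88%) fell at an adjusted p under 0.05 (limma with Benjamini-Hochberg adjustment). These shares are the background for every count of list members in this reported fit. Counts with median-ratio scaling or with hearts left out have other backgrounds, given later in this paragraph. The median absolute log2 change of called genes was 0.59, and 216 of 1671 called genes reached 2-fold. All 7 d hearts lay above all 12 h hearts for 2372 genes (22.4%) and below them for 849 genes (8.0%), which included 1211 of the 1260 and 402 of the 411 called genes. Lack of overlap was thus usual for called genes and is given below as description only. The balance of directions depended on scaling, since with median-ratio factors 775 genes (7.31%) were higher and 788 (7.43%) lower, with all 775 among the 1260 and all 411 kept. With Y-linked mRNA as a covariate over all 15 hearts, 173 (1.63%) were higher and 87 (0.82%) lower. Only the control (0.07, 0.04 and 53.4 RPKM) and 24 h groups (0.04, 53.5 and 52.3 RPKM) mixed hearts with low and high Y-linked mRNA. The slope of that covariate rests mainly on those groups, so a call kept or lost in this fit cannot tell sex from time. The count of higher genes ran from 630 without 7 d heart 2 to 1837 without 12 h heart 1. That of lower genes ran from 218 to 511 without the same hearts.

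Among related RNA-binding proteins, Rbfox1, a neuronal and muscle splicing factor, fell below all other hearts of the study. It measured 11.9, 13.4 and 13.3 RPKM at 12 h and 6.53, 5.61 and 6.66 RPKM at 7 d, a 2.05-fold lower mean (log2 change -0.98 ± 0.17 (SE), adjusted p = 0.00206), without overlap. Control hearts averaged 10.6 ± 1.43 RPKM and 72 h hearts 10.3 ± 2.18 RPKM. Mbnl2, a muscleblind splicing factor, was higher, with 43.5, 34.1 and 33.4 RPKM at 12 h and 51.2, 52.5 and 44.5 RPKM at 7 d (log2 change 0.42 ± 0.13 (SE), adjusted p = 0.0461). The groups did not overlap, but the call was lost under median-ratio scaling (adjusted p = 0.152) and for most reduced sets of hearts (adjusted p of 0.0117 to 0.16 with hearts left out in turn, over the threshold without 12 h hearts 2 or 3 or 7 d hearts 1, 2 or 3). Mbnl1 measured 31.1, 16.4 and 12.4 RPKM at 12 h and 33.7, 30.1 and 22.4 RPKM at 7 d, with heart 1 at 12 h inside the 7 d range, and did not pass (adjusted p = 0.161). Celf1 measured 22.7, 15.5 and 13.04 RPKM at 12 h and 12.9, 11.8 and 8.5 RPKM at 7 d, lower in every 7 d heart but short of the threshold (adjusted p = 0.0768). Of 6 tested CELF, muscleblind and RBFOX genes, 2 were higher and 1 was lower, against 11.9% and 3.88% of all genes. Their median log2 change was 0.38. Counts for this short list were 1 higher and 1 lower with median-ratio scaling, and when hearts were left out in turn 1 to 4 higher and 1 to 2 lower, with a change of over 1.5 times without 12 h hearts 1, 2 or 3 or 7 d hearts 1, 2 or 3. Of the 3 calls, that of Mbnl2 was lost with the Y-linked covariate.

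**Figure D1:**
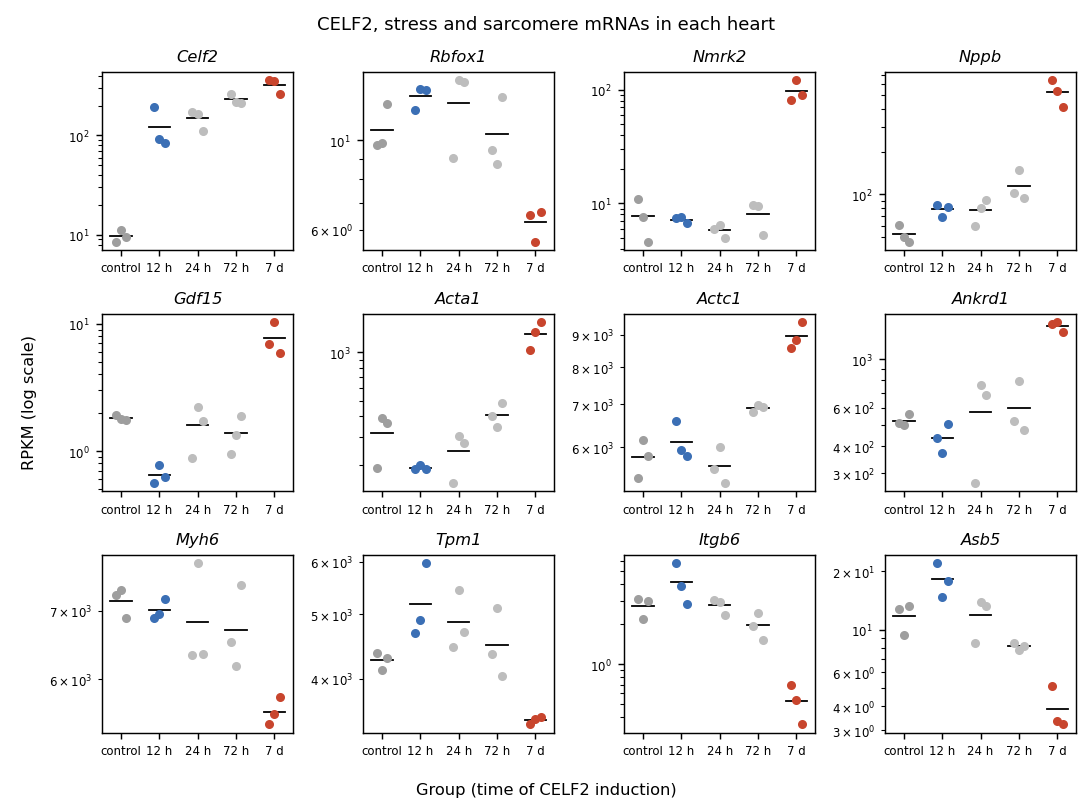
RPKM on log axes for 12 mRNAs in each of the 15 hearts, with points for single hearts, black bars for the mean of 3 hearts, and 12 h in blue and 7 d in red. Celf2 climbed from 123 to 324 RPKM between 12 h and 7 d, while Nmrk2, Nppb, Gdf15, Acta1 and Ankrd1 at 7 d lay above all other hearts and Itgb6 and Asb5 at 7 d below them.

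A smaller set of genes held its call and direction under all of 13 alternatives, namely other pseudocounts, 3 scalings, the title code or Y-linked mRNA as a covariate, and the removal of each of the 6 hearts in turn. It comprised 139 higher and 74 lower genes. When title code and Y-linked mRNA entered together, 22 of the higher and 27 of the lower genes passed as well, but Celf2 did not. Genes that passed all of these included Nmrk2, Gdf15, Acta1, Nppb and Ankrd2 on the higher side, and Itgb6, Asb5, Asb14, Mrgprh, Pkd2l2, Retsat, Mipep, Eif3m and Rbfox1 on the lower side.

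**Figure D2:**
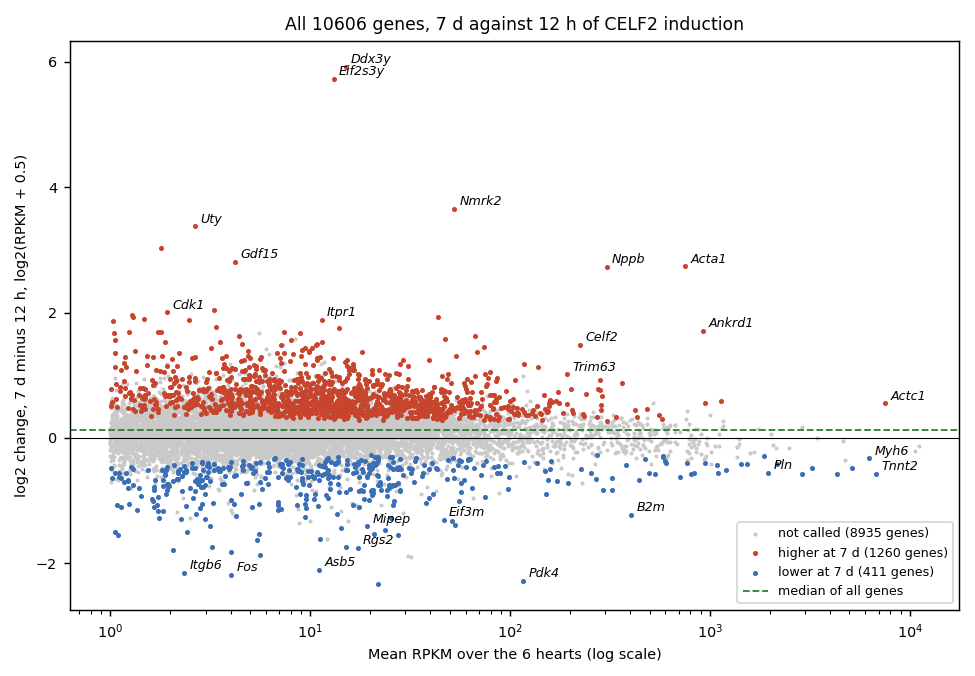
Log2 change from 12 h to 7 d, on log2(RPKM + 0.5), against mean RPKM over the 6 hearts for all 10606 genes, with red points for 1260 genes higher and blue points for 411 genes lower at 7 d. The green dashed line at 0.13 is the median of all genes, and Nmrk2, Nppb, Acta1 and Gdf15 lie highest apart from the Y-linked genes Ddx3y, Eif2s3y, Uty and Kdm5d.

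Known stress genes of the cardiomyocyte gave the 4 largest increases outside the Y chromosome. The paper reports no heart pathology in the CELF2 mouse. After weeks of induction it found no evidence of abnormal ECG, echocardiography, heart size or morphology. Whether the hearts compared here were stressed was not tested. Nmrk2, which encodes a nicotinamide riboside kinase of the NAD salvage route, measured 7.44, 7.51 and 6.65 RPKM at 12 h and 81.2, 121 and 90.8 RPKM at 7 d. The 12 h hearts lay at the control level (7.72 ± 3.17 RPKM), the 72 h hearts at 8.12 ± 2.52 RPKM, and the 7 d mean was 13.6-fold the 12 h mean (log2 change 3.66 ± 0.27 (SE), adjusted p = 2.15e-06). Its gene, named Itgb1bp3 in the older annotation, lies at chr10:80660915-80664782 (mm9, minus strand), and an exon of the opposite-strand transcript 2310050B05Rik overlaps it.

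Nppb, the gene of B-type natriuretic peptide, measured 84.6, 69.7 and 81.1 RPKM at 12 h and 637, 538 and 416 RPKM at 7 d. All hearts up to 72 h stayed far below the 7 d range (72 h mean 115 ± 29.6 RPKM), and the increase over 12 h was 6.76-fold (log2 change 2.73 ± 0.20 (SE), adjusted p = 2.15e-06). Gdf15, a secreted stress factor of the TGF-β family, measured 0.56, 0.78 and 0.62 RPKM at 12 h and 6.99, 10.4 and 5.93 RPKM at 7 d (adjusted p = 1.3e-05). Here the 12 h hearts also lay under the control hearts (1.82 ± 0.0794 RPKM). Ankrd1, a stretch-responsive ankyrin repeat protein of the sarcomere and nucleus, measured 437, 371 and 503 RPKM at 12 h and 1445, 1486 and 1331 RPKM at 7 d, 3.25-fold higher (adjusted p = 0.00178). Its relative Ankrd2 went from 0.16, 0.17 and 0.14 RPKM to 1.58, 1.78 and 2.37 RPKM, low levels that nonetheless did not overlap (adjusted p = 6.17e-06). Tnfrsf12a, the receptor of the cytokine TWEAK, measured 23.2, 30.2 and 44.99 RPKM at 12 h and 78.02, 131 and 92.5 RPKM at 7 d. Rcan1, a calcineurin inhibitor, measured 35.04, 33.5 and 43.8 RPKM at 12 h and 60.7, 57.1 and 50.97 RPKM at 7 d. The groups stayed apart for each gene (adjusted p = 0.00147 and 0.0245), and Rcan1 depended on single hearts (adjusted p of 0.0206 to 0.0972 with hearts left out in turn, over the threshold without 12 h heart 2 or 7 d hearts 1 or 2) and on scaling (median-ratio adjusted p = 0.0875). Nppa, the atrial natriuretic peptide gene, showed wide overlap, as its 12 h hearts measured 29.2, 223 and 64.9 RPKM and its 7 d hearts 75.3, 125 and 215 RPKM (adjusted p = 0.445).

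Of the 24 tested heart stress genes, 11 rose and 2, the myosin heavy chains Myh6 and Myh7, fell, against 11.9% and 3.88% of all genes. The list median was 0.55 against 0.13 over all genes. The list was chosen with earlier results of these data known, so its count and median are description only. Increases numbered 9 to 11 with hearts left out in turn, and 5 of the 13 calls were kept with the Y-linked covariate, which ended those of Ankrd1, Tnfrsf12a and Rcan1. Of 8 tested atrial markers 1 (Tbx5) fell, a call not kept with the Y-linked covariate, and their sum ranged from 115 to 617 RPKM at 12 h and from 165 to 404 RPKM at 7 d. The atrial myosin light chain Myl7 spread from 12.8 to 103 RPKM at 12 h and from 4.04 to 29.4 RPKM at 7 d, highest in the same 12 h heart that held the most Nppa. The part of atrial residue in the Nppa values was not tested.

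Sarcomere genes moved in both directions, as 8 rose and 9 fell among 45 tested, against 11.9% and 3.88% of all genes. Their list median of 0.04 turned to -0.09 under median-ratio scaling, where the median of all genes was 0.0075. Decreases numbered 5 to 11 with hearts left out in turn, moving over 1.5 times without 12 h hearts 2 or 3. Acta1, skeletal muscle α-actin, measured 190.2, 201 and 188 RPKM at 12 h and 1032, 1342 and 1550.5 RPKM at 7 d, a 6.78-fold higher mean (log2 change 2.74 ± 0.27 (SE), adjusted p = 2.87e-05). Even the lowest 7 d heart exceeded the highest heart of every other group, and 72 h hearts averaged 409.8 ± 68.9 RPKM. Actc1, the α-actin of heart and the most abundant of all higher genes, measured 6587, 5937 and 5818 RPKM at 12 h and 8570.2, 8830.1 and 9434 RPKM at 7 d, 1.46-fold higher and without overlap (adjusted p = 0.000708). Both actins are near-identical in coding sequence, and only uniquely mapping reads were used, so their division of reads is uncertain. Csrp3, muscle LIM protein, measured 856, 880.4 and 1014 RPKM at 12 h and 1311, 1472 and 1331 RPKM at 7 d (adjusted p = 0.00121). Mybpc3, cardiac myosin-binding protein C, measured 770.5, 757 and 765 RPKM at 12 h and 1025, 1159 and 1207 RPKM at 7 d (adjusted p = 0.00673). Tpm2, β-tropomyosin, measured 10.99, 28.8 and 35.4 RPKM at 12 h and 54.3, 72.8 and 80.2 RPKM at 7 d (adjusted p = 0.01). With the Y-linked covariate Acta1 and Actc1 kept their calls, while Csrp3, Mybpc3 and Tpm2 lost theirs.

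The most abundant genes to fall were thin- and thick-filament genes of the adult ventricle. Tpm1, α-tropomyosin, measured 4695, 4909 and 5977 RPKM at 12 h and 3413, 3483 and 3498 RPKM at 7 d, a 1.499-fold lower mean (log2 change -0.58 ± 0.11 (SE), adjusted p = 0.00338). The 7 d hearts were tightly grouped and lay below all others, but the call was lost with the title code as covariate. Tnnt2, cardiac troponin T, measured 6330.5, 7694 and 10427 RPKM at 12 h and 4972, 5717 and 5401 RPKM at 7 d (log2 change -0.58 ± 0.14 (SE), adjusted p = 0.0151), without overlap despite a wide 12 h spread. Tnnc1, troponin C, measured 3635, 3600.5 and 4079.6 RPKM at 12 h and 2941, 2533 and 2665 RPKM at 7 d (adjusted p = 0.00459). Myh6 fell 1.26-fold (adjusted p = 0.029). Myh7, the slow myosin, measured 2128, 2588 and 2689 RPKM at 12 h and 1764, 1872 and 1913 RPKM at 7 d (adjusted p = 0.0344). Tnni3, troponin I, measured 4539, 6068 and 7527 RPKM at 12 h and 3934, 4802 and 4083 RPKM at 7 d with overlapping hearts (adjusted p = 0.0386). Myoz2, a Z-disc partner of calcineurin, measured 535, 526 and 564 RPKM at 12 h and 360.0, 331 and 332 RPKM at 7 d (log2 change -0.67 ± 0.07 (SE), adjusted p = 5.18e-05) and passed under all 13 alternatives. The call of Myh6 depended on single hearts (adjusted p of 0.035 to 0.0893 with hearts left out in turn, over the threshold without 12 h hearts 2 or 3 or 7 d hearts 1, 2 or 3). The same held for Myh7 (adjusted p of 0.0106 to 0.121 with hearts left out in turn, over the threshold without 12 h hearts 2 or 3 or 7 d hearts 1, 2 or 3). For Tnni3 the reduced sets gave an adjusted p of 0.00183 to 0.155 with hearts left out in turn, over the threshold without 12 h hearts 2 or 3 or 7 d hearts 1 or 3. The calls of Tnnt2, Tnnc1, Myh6, Myh7 and Tnni3 were lost with the Y-linked covariate.

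**Figure D3:**
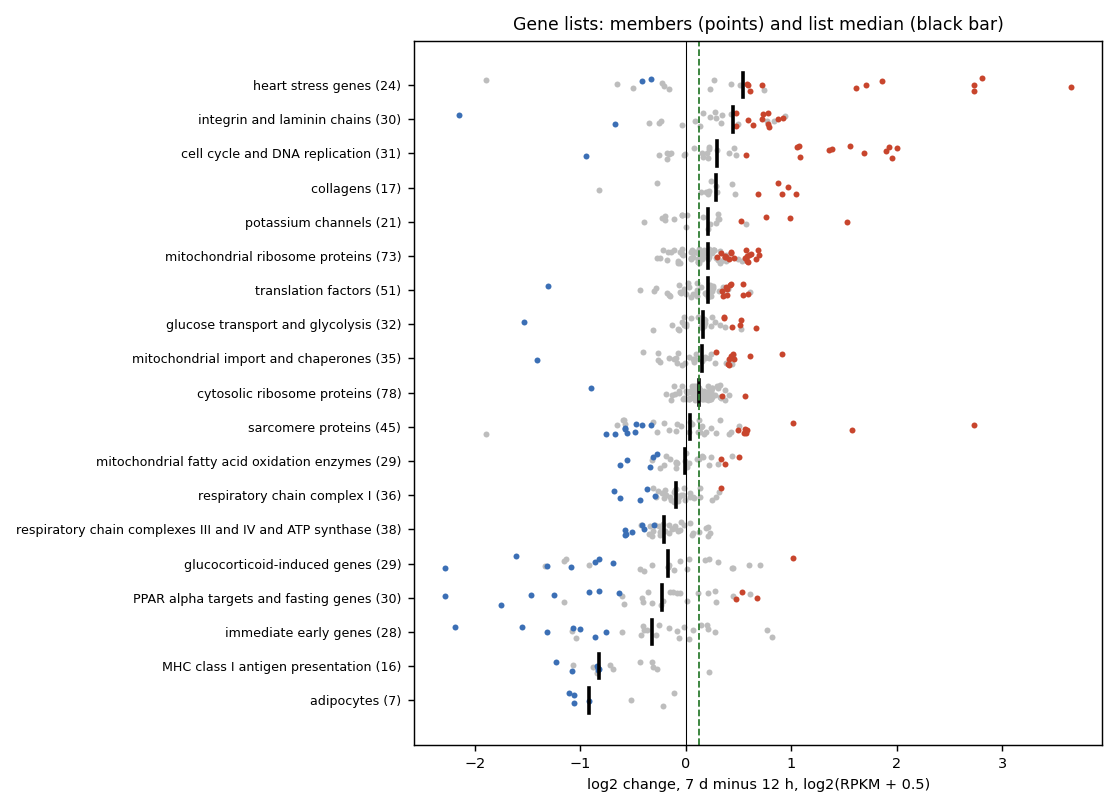
Log2 change from 12 h to 7 d for the tested members of 19 gene lists (number tested in parentheses), with red points called higher, blue points called lower and grey points not called. The black bar is the list median, the green dashed line the median of all genes (0.13), and medians run from -0.92 for adipocyte markers to 0.55 for heart stress genes. The lists were chosen with earlier results of these data known.

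Cdk1, the kinase that starts mitosis, measured 0.7, 0.43 and 0.24 RPKM at 12 h and 2.1, 3.57 and 4.53 RPKM at 7 d, 7.45-fold higher (log2 change 2.00 ± 0.27 (SE), adjusted p = 0.000284). Top2a, the topoisomerase of dividing cells, measured 0.39, 0.24 and 0.12 RPKM at 12 h and 1.81, 2.3 and 2.96 RPKM at 7 d. Ccna2, cyclin A2, measured 0.2, 0.44 and 0.31 RPKM at 12 h and 1.81, 2.19 and 3.92 RPKM at 7 d. For each of the 3 genes the 7 d hearts lay above all other hearts of the study, and the 12 h mean was below the control mean (1.18 ± 0.277 RPKM for Cdk1). Ccnd1, the G1 cyclin D1, was far more abundant at 9.97, 9.18 and 10.4 RPKM at 12 h and 20.7, 26.9 and 31.8 RPKM at 7 d (adjusted p = 0.000175). In all, 12 of 31 tested cell cycle genes rose and 1 fell, against 11.9% and 3.88% of all genes. Those that rose included Prc1, Cdc20, Ccnb2, Mcm5 and Birc5, and the list median was 0.29. The gene that fell was Cenpf, a kinetochore protein, at 3.28, 1.88 and 2.21 RPKM at 12 h and 0.88, 0.97 and 1.19 RPKM at 7 d (adjusted p = 0.0156). Its call depended on 1 heart (adjusted p of 0.0204 to 0.0573 with hearts left out in turn, over the threshold without 7 d heart 2). Increases numbered 11 to 14 with hearts left out in turn, and with the Y-linked covariate Cdk1, Top2a, Ccna2 and Ccnd1 alone kept their calls. Which cell type carried these mRNAs was not tested.

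Among PPARα targets and genes of the fasted heart, 7 of 30 fell and 3 rose, against 3.88% and 11.9% of all genes, with a median of -0.23. Counts in this list were 3 higher and 13 lower with median-ratio scaling, and when hearts were left out in turn 1 to 6 higher and 6 to 8 lower, with a change of over 1.5 times without 12 h hearts 1, 2 or 3 or 7 d hearts 2 or 3. Pdk4, the kinase that shuts glucose carbon out of mitochondria, measured 298, 136 and 151 RPKM at 12 h and 41.3, 27.8 and 45.2 RPKM at 7 d, with heart 1 at 12 h far above the rest. Its mean was 5.12-fold lower at 7 d (log2 change -2.28 ± 0.33 (SE), adjusted p = 0.00047), against 70.2 ± 12.3 RPKM in control, 125 ± 64.05 at 24 h and 59.5 ± 8.93 at 72 h. Ucp3, a mitochondrial uncoupling protein induced by fatty acids, measured 28.5, 21.9 and 20.6 RPKM at 12 h and 5.58, 6.66 and 7.78 RPKM at 7 d, 3.54-fold lower (adjusted p = 0.00153). Both genes separated the groups, which was a condition for being named among the largest decreases.

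Retsat, retinol saturase and a PPAR-responsive gene, measured 35.6, 36.5 and 33.4 RPKM at 12 h and 12.6, 11.7 and 13 RPKM at 7 d (log2 change -1.46 ± 0.11 (SE), adjusted p = 2.75e-06), and each 7 d heart lay below every other heart of the study. Control hearts averaged 33.7 ± 2.04 RPKM and 72 h hearts 24.2 ± 3.09 RPKM. Among the members that rose, Cpt1a, the carnitine transferase of liver type that gates fatty acid entry, measured 13.5, 10.2 and 8.41 RPKM at 12 h and 15.7, 17.01 and 18.9 RPKM at 7 d (adjusted p = 0.026). This call depended on single hearts (adjusted p of 0.00684 to 0.109 with hearts left out in turn, over the threshold without 12 h hearts 2 or 3 or 7 d hearts 2 or 3). Pdk4 and Retsat kept their calls with the Y-linked covariate, and Ucp3 and Cpt1a lost theirs. Food had been withheld shortly before doxycycline feeding, 12 h before tissue was taken in the 12 h group and 7 d before in the other, so time since that interval cannot be told apart from time of induction.

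Of 29 glucocorticoid-induced genes, 7 fell and 1 rose, against 3.88% and 11.9% of all genes. The list median was -0.17, and decreases numbered 5 to 10 with hearts left out in turn. Errfi1, a feedback inhibitor of EGF receptors, measured 9.71, 20.6 and 21.6 RPKM at 12 h and 4.71, 4.79 and 5.55 RPKM at 7 d. Igfbp3, an IGF carrier, measured 13.3, 13.96 and 18.2 RPKM at 12 h and 5.85, 7.92 and 6.84 RPKM at 7 d, both without overlap (adjusted p = 0.00129 and 0.000705). The member that rose was Trim63, the muscle ubiquitin ligase MuRF1, at 133, 124 and 125 RPKM at 12 h and 237, 270.1 and 265 RPKM at 7 d, 2.02-fold higher (adjusted p = 0.000122). Fos, a component of the AP-1 transcription factor, measured 5.78, 8.6 and 6.46 RPKM at 12 h and 1.42, 1.17 and 0.82 RPKM at 7 d, 6.11-fold lower (log2 change -2.18 ± 0.42 (SE), adjusted p = 0.00347). All 12 h hearts lay above every other heart of the study, while control, 24 h and 72 h hearts averaged 1.99 ± 2.03, 1.27 ± 0.415 and 1.73 ± 0.895 RPKM. Errfi1 and Trim63 kept their calls with the Y-linked covariate, and Igfbp3 and Fos lost theirs.

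Dusp1, the MAP kinase phosphatase whose promoter is shown above with an E-box and a cyclic AMP response element, measured 49.4, 70.0 and 104 RPKM at 12 h and 27.2, 29.4 and 28.01 RPKM at 7 d (log2 change -1.32 ± 0.25 (SE), adjusted p = 0.00314). Its 12 h hearts were scattered and its 7 d hearts nearly equal. Btg2, an antiproliferative factor with the same response element, measured 14.3, 23.6 and 32.1 RPKM at 12 h and 12.1, 11.2 and 12.8 RPKM at 7 d (adjusted p = 0.0444). Of 28 tested immediate early genes, 7 fell (Dusp1, Fos, Zfp36, Klf2, Jun, Btg2 and Klf4), against 3.88% of all genes. The list median was -0.32, and 2 of the others had an unadjusted limma p under 0.05 for an increase. The decreases numbered 2 to 11 with hearts left out in turn, moving over 1.5 times without 12 h hearts 1, 2 or 3 or 7 d hearts 1, 2 or 3, and none of the 7 was kept with the Y-linked covariate (adjusted p = 0.0686 for Dusp1). Rgs2, which damps G protein signals, measured 20.5, 26.7 and 33.9 RPKM at 12 h and 6.69, 7.79 and 8.07 RPKM at 7 d and passed under all 13 alternatives (adjusted p = 1.3e-05).

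Clock genes at 12 h and at 7 d both lay far from the control level. Arntl, which encodes BMAL1, the partner of CLOCK, measured 7.18, 6.41 and 5.77 RPKM at 12 h and 4.54, 5.02 and 5.7 RPKM at 7 d, against 0.623 ± 0.179 RPKM in control, 0.943 ± 0.482 at 24 h and 1.12 ± 0.0945 at 72 h. The 12 h and 7 d hearts did not overlap, yet the difference did not pass (log2 change -0.32 ± 0.19 (SE), adjusted p = 0.288). Npas2, a CLOCK paralog, measured 2.58, 2.39 and 1.81 RPKM at 12 h and 1.03, 0.9 and 1.19 RPKM at 7 d, so that it fell 2.17-fold (adjusted p = 0.00269) while staying above the control level of 0.31 ± 0.0916 RPKM. Dbp, an output of the clock, measured 10.5, 18.6 and 38.7 RPKM at 12 h and 28.8, 30.7 and 31.4 RPKM at 7 d, overlapping (adjusted p = 0.261) and all below the control mean of 95.4 ± 14.3 RPKM.

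Some clock genes did separate the 12 h from the 7 d hearts. Per3, a period-family gene with 2 D-box matches in the promoter shown above, measured 2.59, 1.81 and 1.94 RPKM at 12 h and 4.3, 4.42 and 3.42 RPKM at 7 d (log2 change 0.80 ± 0.15 (SE), adjusted p = 0.00276). Tef, a D-box binding factor, measured 15.6, 13.3 and 15.3 RPKM at 12 h and 22.4, 23.1 and 21.1 RPKM at 7 d (adjusted p = 0.01). Its relative Hlf measured 6.02, 4.96 and 6.86 RPKM at 12 h and 10.5, 12.3 and 13.2 RPKM at 7 d (adjusted p = 0.00142). All 3 genes separated the groups, as was usual for called genes. Per2 measured 1.06, 1.19 and 1.79 RPKM at 12 h and 2.39, 2.34 and 2.5 RPKM at 7 d (adjusted p = 0.0463; median-ratio scaling 0.0651), and control hearts averaged 7.68 ± 1.22 RPKM. Across 22 clock repressors and outputs, 4 rose and 1 (Tsc22d3, a glucocorticoid-induced leucine zipper) fell, against 11.9% and 3.88% of all genes. The counts were 3 higher and 4 lower with median-ratio scaling, and when hearts were left out in turn 3 to 6 higher and 0 to 2 lower, with a change of over 1.5 times without 12 h hearts 1, 2 or 3 or 7 d hearts 1, 2 or 3. Among 7 activators and their regulators 1 rose and 1 (Npas2) fell. Clock itself measured 7.39, 1.42 and 0.93 RPKM at 12 h, where heart 1 stood apart, and 5.45, 5.04 and 2.02 RPKM at 7 d. No call of either clock list was kept with the Y-linked covariate. The sources do not state the hour of day at which the hearts were taken.

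**Figure D4:**
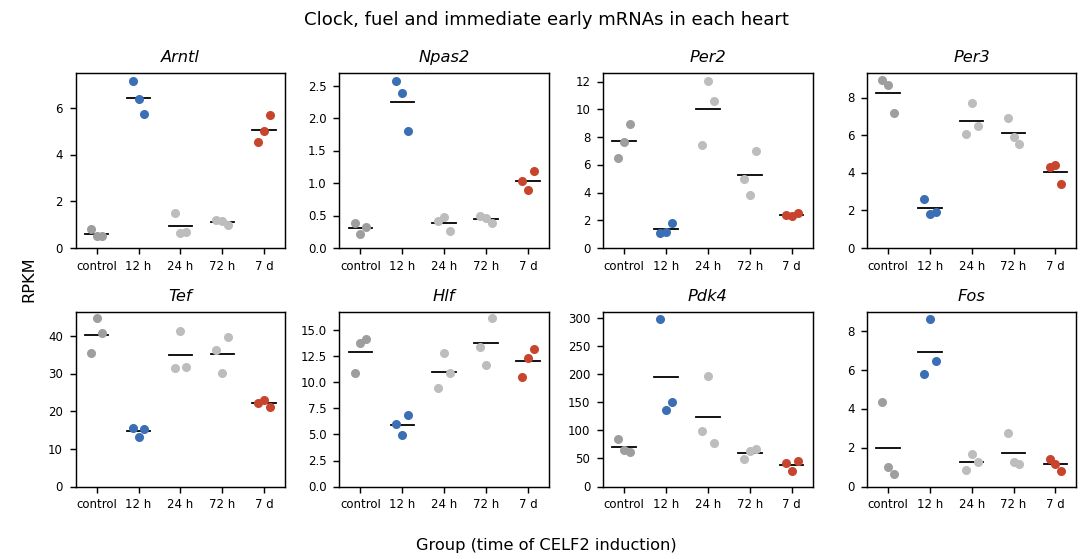
RPKM on linear axes from 0 for 8 clock, fuel and immediate early mRNAs in each of the 15 hearts, with points for single hearts and black bars for the mean of 3. Arntl is higher in all 12 h and 7 d hearts (means 6.45 and 5.09 RPKM) than elsewhere, Per3 and Tef are lower in both than elsewhere, and Fos is highest at 12 h.

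Of 38 tested subunits of complexes III and IV and ATP synthase, 7 fell, against 3.88% of all genes. The list median was -0.21, and 2 others had an unadjusted limma p under 0.05 for an increase. Decreases numbered 2 to 8 with hearts left out in turn, moving over 1.5 times without 12 h hearts 2 or 3 or 7 d hearts 1, 2 or 3. Scaling mattered too, with 0 higher and 14 lower with median-ratio scaling. Cox7a1, a heart and muscle subunit of cytochrome oxidase, measured 1364, 1345 and 1243 RPKM at 12 h and 833, 894 and 943 RPKM at 7 d (log2 change -0.57 ± 0.10 (SE), adjusted p = 0.00227). Cox6a2, another muscle subunit, measured 3126, 2984 and 4374 RPKM at 12 h and 2128, 2265 and 2563 RPKM at 7 d (adjusted p = 0.00924). In complex I, 5 of 36 subunits fell and Ndufs8 rose, against 3.88% and 11.9% of all genes. There were 0 higher and 6 lower with median-ratio scaling, and 0 to 3 higher and 3 to 5 lower when hearts were left out in turn. These counts changed by over 1.5 times without 12 h hearts 1, 2 or 3 or 7 d hearts 1, 2 or 3. Ndufc2 measured 186, 164 and 224 RPKM at 12 h and 119, 124 and 113 RPKM at 7 d (adjusted p = 0.00123). Sdhc, a membrane anchor of complex II, measured 327, 320.2 and 339 RPKM at 12 h and 177, 218 and 238 RPKM at 7 d and passed under all 13 alternatives (adjusted p = 0.00444). The groups did not overlap for any of these 4 subunits, as was usual for called genes. With the Y-linked covariate Sdhc kept its call and Cox7a1, Cox6a2 and Ndufc2 lost theirs.

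Of 73 mitochondrial ribosome proteins 19 rose and none fell (limma), against 11.9% and 3.88% of all genes, with 2 decreases at an unadjusted p under 0.05. The median was 0.21 against 0.13 for all genes. Of the 19 increases, 10 kept their call under median-ratio scaling and 1 (Mrpl16) with the Y-linked covariate, and the increases numbered 8 to 18 with hearts left out in turn, moving over 1.5 times without 12 h heart 2 or 7 d hearts 2 or 3. Mrpl16 measured 32.3, 32.8 and 31.5 RPKM at 12 h and 46.98, 47.8 and 48.2 RPKM at 7 d (log2 change 0.56 ± 0.08 (SE), adjusted p = 0.000324). Mrpl46 measured 17.5, 22.6 and 20.3 RPKM at 12 h and 31.5, 33.5 and 32.97 RPKM at 7 d (adjusted p = 0.000668). Both differences were small and larger than the spread of either group. Of 35 import and chaperone genes 9 rose and 1 fell, against 11.9% and 3.88% of all genes. This list had 5 higher and 2 lower with median-ratio scaling, and when hearts were left out in turn 4 to 9 higher and 1 to 2 lower, with a change of over 1.5 times without 12 h hearts 2 or 3 or 7 d hearts 1 or 2. Timm10, a small chaperone between the mitochondrial membranes, measured 64.01, 62.6 and 51.0 RPKM at 12 h and 104, 122 and 108 RPKM at 7 d (adjusted p = 0.000178). The 1 that fell was Mipep, the mitochondrial intermediate peptidase, at 29.1, 26.5 and 28.9 RPKM at 12 h and 10.8, 9.74 and 10.3 RPKM at 7 d, a 2.74-fold lower mean (log2 change -1.41 ± 0.10 (SE), adjusted p = 2.08e-06). Mipep lies at chr14:61403403-61524315 (mm9, plus strand), where exons of Gm15919 overlap it on the opposite strand.

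Of 51 translation factors 10 rose and 1 fell, against 11.9% and 3.88% of all genes. The counts became 3 higher and 1 lower with median-ratio scaling, and when hearts were left out in turn 6 to 11 higher and 1 lower, with a change of over 1.5 times without 12 h hearts 2 or 3 or 7 d heart 2. Eef1g, an elongation factor subunit, measured 149.6, 161 and 159 RPKM at 12 h and 214, 228 and 245 RPKM at 7 d (adjusted p = 0.00166). Eif4g1, the scaffold of cap-dependent initiation, measured 87.2, 77.2 and 74.5 RPKM at 12 h and 115, 119 and 125 RPKM at 7 d (adjusted p = 0.00178). Eif3m, a subunit of the initiation factor that holds the small ribosomal subunit, alone fell, from 72.9, 66.8 and 60.2 RPKM to 27.6, 25.5 and 26.4 RPKM, with no overlap (log2 change -1.31 ± 0.09 (SE), adjusted p = 2.08e-06). It lies at chr2:104839813-104857237 (mm9, minus strand), where an exon of Ccdc73 overlaps it on the opposite strand. Cytosolic ribosome proteins had the same median as all genes (0.13, just under 0 with median-ratio scaling), with 2 of 78 higher and 1 lower, and 1 higher and 2 lower with median-ratio scaling, and when hearts were left out in turn 1 to 4 higher and 1 to 2 lower, with a change of over 1.5 times without 12 h hearts 1 or 3 or 7 d hearts 1, 2 or 3. The lower was Rpl3l, a muscle-specific form of ribosomal protein L3, at 167, 207 and 216 RPKM at 12 h and 95.2, 109 and 110.3 RPKM at 7 d (adjusted p = 0.000391). Rpl3, the widely used form, measured 115, 142 and 124 RPKM at 12 h and 159, 201 and 205 RPKM at 7 d and rose (adjusted p = 0.0072). The calls of Eif3m, Eef1g and Rpl3l held with the Y-linked covariate, and those of Eif4g1 and Rpl3 were lost.

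Glucose genes gave 6 increases and 1 decrease among 32 tested, against 11.9% and 3.88% of all genes. They gave 4 higher and 2 lower with median-ratio scaling, and when hearts were left out in turn 2 to 7 higher and 1 lower, with a change of over 1.5 times without 7 d hearts 2 or 3. With the title code as covariate 2 were higher. Pfkp, the platelet-type phosphofructokinase, measured 18.4, 21.3 and 19.0 RPKM at 12 h and 30.3, 32.7 and 30.8 RPKM at 7 d (adjusted p = 0.00129). Hk1, hexokinase 1, measured 46.1, 49.1 and 44.3 RPKM at 12 h and 61.3, 65.2 and 75.9 RPKM at 7 d (adjusted p = 0.0114), the latter lost without 7 d heart 3 (adjusted p of 0.0132 to 0.0584 with hearts left out in turn, over the threshold without 7 d heart 3). Pfkfb1, which makes the activator of phosphofructokinase, fell from 10.2, 7.78 and 7.43 RPKM to 2.71, 2.27 and 2.79 RPKM (log2 change -1.53 ± 0.15 (SE), adjusted p = 2.58e-05). Fatty acid oxidation enzymes showed 3 increases and 5 decreases among 29, with a median of -0.01, and the counts were 1 higher and 10 lower with median-ratio scaling, and when hearts were left out in turn 1 to 5 higher and 0 to 3 lower, with a change of over 1.5 times without 12 h hearts 1, 2 or 3 or 7 d hearts 1, 2 or 3. Hadh, which acts on hydroxyacyl-CoA, measured 120.2, 128 and 139 RPKM at 12 h and 182, 187 and 180.3 RPKM at 7 d and rose (adjusted p = 0.00353). Acadm, the medium-chain dehydrogenase, measured 679.6, 597 and 666 RPKM at 12 h and 571, 506 and 495 RPKM at 7 d and fell (adjusted p = 0.0334). Neither overlapped between groups, but Acadm depended on single hearts (adjusted p of 0.0238 to 0.126 with hearts left out in turn, over the threshold without 12 h hearts 1 or 3 or 7 d hearts 2 or 3). In the TCA cycle list 4 rose and 4 fell among 25. The list median of 0.08 turned to -0.06 under median-ratio scaling, where that of all genes was 0.0075. The even split also depended on these choices, with 1 higher and 7 lower with median-ratio scaling, and when hearts were left out in turn 1 to 5 higher and 3 to 4 lower, with a change of over 1.5 times without 12 h hearts 2 or 3 or 7 d hearts 1, 2 or 3. Me2, a mitochondrial malic enzyme, measured 4.16, 3.27 and 3.2 RPKM at 12 h and 8.3, 7.88 and 7.93 RPKM at 7 d (adjusted p = 2.87e-05). Idh2, mitochondrial isocitrate dehydrogenase, measured 894, 959 and 1033 RPKM at 12 h and 599, 658 and 675 RPKM at 7 d (adjusted p = 0.00381). With the Y-linked covariate Pfkp, Pfkfb1 and Me2 kept their calls, and Hk1, Hadh, Acadm and Idh2 lost theirs.

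Of 30 integrin, laminin and nidogen genes of the basement membrane and its receptors 11 rose and 2 fell, against 11.9% and 3.88% of all genes. Their median was 0.45. Increases numbered 6 to 14 with hearts left out in turn, moving over 1.5 times without 12 h hearts 2 or 3 or 7 d hearts 2 or 3. Lama5, a laminin chain, measured 11.9, 12.99 and 10.8 RPKM at 12 h and 16.5, 22.9 and 20.9 RPKM at 7 d (log2 change 0.72 ± 0.14 (SE), adjusted p = 0.00393). Itga3, a laminin-binding integrin chain, measured 2.71, 3.36 and 2.85 RPKM at 12 h and 5.0, 5.56 and 5.77 RPKM at 7 d (adjusted p = 0.00549). Itga6, another such chain, measured 8.71, 5.82 and 4.12 RPKM at 12 h and 12.4, 11.3 and 11.5 RPKM at 7 d (adjusted p = 0.00676). For all 3 the 7 d hearts lay above the 12 h hearts, and the 12 h means lay below the control means of 20.5 ± 2.46, 3.52 ± 0.381 and 9.99 ± 0.850 RPKM. Among 17 collagens 5 rose, against 11.9% of all genes, and of those Col4a1, Col4a2, Col4a4 and Col4a5 encode basement membrane collagen IV. Col4a5 measured 6.8, 7.42 and 7.08 RPKM at 12 h and 11.4, 14.7 and 14.5 RPKM at 7 d (adjusted p = 0.00108). Col4a1 measured 55.2, 78.5 and 82.6 RPKM at 12 h and 92.5, 140.0 and 188 RPKM at 7 d (adjusted p = 0.021). The latter call depended on single hearts (adjusted p of 0.00495 to 0.0966 with hearts left out in turn, over the threshold without 12 h heart 1 or 7 d hearts 2 or 3). The increases among collagens numbered 2 to 10 with hearts left out in turn, moving over 1.5 times without 12 h heart 1 or 7 d hearts 1, 2 or 3. Of the other collagens 1 had an unadjusted limma p under 0.05 for a decrease, and none of the increases named here was kept with the Y-linked covariate.

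Itgb6, an integrin chain better known from epithelia, went the other way at 5.79, 3.89 and 2.82 RPKM at 12 h and 0.69, 0.54 and 0.35 RPKM at 7 d, 7.91-fold lower (log2 change -2.15 ± 0.22 (SE), adjusted p = 3.98e-05). The control, 24 h and 72 h means lay between the 7 d and 12 h means, at 2.76 ± 0.498, 2.78 ± 0.381 and 1.96 ± 0.460 RPKM. Lamb3, the other member to fall, measured 3.78, 3.56 and 3.38 RPKM at 12 h and 1.8, 1.96 and 2.46 RPKM at 7 d (adjusted p = 0.0274; adjusted p of 0.0356 to 0.0937 with hearts left out in turn, over the threshold without 12 h hearts 2 or 3 or 7 d hearts 1 or 2). Of 48 matrix proteases, crosslinkers and matricellular genes 4 rose and 3 fell, against 11.9% and 3.88% of all genes. The counts were 3 higher and 6 lower with median-ratio scaling, and when hearts were left out in turn 1 to 3 higher and 1 to 3 lower, with a change of over 1.5 times without 12 h heart 2 or 7 d hearts 2 or 3. Sparc, a collagen-binding glycoprotein, measured 179, 211 and 231 RPKM at 12 h and 278, 337 and 458 RPKM at 7 d (adjusted p = 0.00747). Spon2 measured 6.13, 5.73 and 5.39 RPKM at 12 h and 1.73, 3.69 and 2.44 RPKM at 7 d (adjusted p = 0.00588), where both groups lay above the control mean of 0.807 ± 0.217 RPKM. Itgb6 alone of these 4 genes kept its call with the Y-linked covariate.

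Ion channel genes showed 4 increases among 21 potassium channels and 5 increases with 2 decreases among 28 other channels, against 11.9% higher and 3.88% lower over all genes. The potassium channels had 3 higher and 0 lower with median-ratio scaling and 3 to 5 higher and 0 lower when hearts were left out in turn. The other channels had 4 higher and 2 lower with median-ratio scaling, and when hearts were left out in turn 1 to 8 higher and 1 lower, with a change of over 1.5 times without 12 h hearts 1, 2 or 3 or 7 d hearts 1, 2 or 3. Kcnj14, an inward rectifier, measured 0.83, 0.51 and 0.78 RPKM at 12 h and 1.95, 3.59 and 3.66 RPKM at 7 d (adjusted p = 0.00121). Clcn1, the chloride channel of skeletal muscle whose transcript is a known CELF and muscleblind target, measured 2.02, 2.07 and 1.99 RPKM at 12 h and 0.74, 0.91 and 0.84 RPKM at 7 d, 2.44-fold lower (adjusted p = 0.000629). Neither gene overlapped between groups, as was usual for called genes. Under the Y-linked covariate Clcn1 kept its call and Kcnj14 lost its call.

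In the calcium cycling list 5 rose and 4 fell among 43, against 11.9% and 3.88% of all genes, so the share of increases was near that of all genes. The list had 5 higher and 4 lower with median-ratio scaling, and when hearts were left out in turn 4 to 8 higher and 3 to 4 lower, with a change of over 1.5 times without 12 h heart 1. Itpr1, the inositol trisphosphate receptor, measured 7.1, 3.73 and 3.25 RPKM at 12 h and 20.9, 20.8 and 12.6 RPKM at 7 d, 3.87-fold higher (log2 change 1.88 ± 0.30 (SE), adjusted p = 0.0012), with 72 h hearts between at 9.96 ± 2.97 RPKM. Pln, phospholamban, the brake on the calcium pump, measured 2571, 2053 and 2381 RPKM at 12 h and 1594, 1621 and 1532 RPKM at 7 d (log2 change -0.56 ± 0.10 (SE), adjusted p = 0.00177). Atp1b1, the β1 subunit of the sodium pump, measured 135, 131 and 125 RPKM at 12 h and 208, 213 and 227 RPKM at 7 d (adjusted p = 0.00101). S100a1, a calcium sensor, measured 1087, 949 and 957 RPKM at 12 h and 753, 643 and 636 RPKM at 7 d (adjusted p = 0.00345). Each of these 4 separated the groups, as was usual for called genes. Prkar1a, the regulatory subunit of protein kinase A, rose to 235, 263 and 268 RPKM from 151, 143 and 153 RPKM (adjusted p = 0.000182), as 1 of 3 increases among 33 adrenergic and cyclic AMP genes (2 to 12 with hearts left out in turn, moving over 1.5 times without 12 h heart 1). With the Y-linked covariate Itpr1, Pln and Prkar1a kept their calls and Atp1b1 and S100a1 lost theirs.

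Ubiquitin ligase adaptors of muscle were divided. Asb5 measured 22.1, 14.8 and 17.8 RPKM at 12 h and 5.09, 3.34 and 3.22 RPKM at 7 d, 4.697-fold lower (log2 change -2.10 ± 0.21 (SE), adjusted p = 2.87e-05). Asb14 measured 41.2, 35.6 and 31.5 RPKM at 12 h and 15.2, 15.8 and 12.8 RPKM at 7 d (adjusted p = 1.17e-05). The 24 h and 72 h means of Asb5 lay between, at 11.9 ± 2.99 and 8.18 ± 0.342 RPKM, and for Asb14 the 72 h mean was 26.8 ± 1.33 RPKM. Of 43 ubiquitin ligase and autophagy genes 8 rose and 4 fell, against 11.9% and 3.88% of all genes. The counts were 7 higher and 7 lower with median-ratio scaling, and when hearts were left out in turn 5 to 13 higher and 3 to 5 lower, with a change of over 1.5 times without 12 h hearts 1 or 2 or 7 d heart 2. Ctsb, the lysosomal protease cathepsin B, measured 204, 195 and 154 RPKM at 12 h and 279, 296 and 318 RPKM at 7 d (adjusted p = 0.00182). Glutathione genes showed 7 decreases and 3 increases among 42, against 3.88% and 11.9% of all genes, and 6 of the 7 are transferases. Gstm1 measured 238, 237 and 255 RPKM at 12 h and 155, 141 and 147 RPKM at 7 d and Gstm2 129, 119 and 125 RPKM at 12 h and 73.3, 71.8 and 67.2 RPKM at 7 d. Mgst1, a microsomal transferase, measured 30.4, 20.3 and 22.3 RPKM at 12 h and 11.1, 10.5 and 11.2 RPKM at 7 d. None of the 3 overlapped between groups, as was usual for called genes (adjusted p = 0.000391, 4.92e-05 and 0.000122). Gpx1, glutathione peroxidase 1, measured 62.4, 72.9 and 70.6 RPKM at 12 h and 95.2, 120.3 and 110.3 RPKM at 7 d and rose (adjusted p = 0.000746). The Gstm genes are close copies, so their shares of reads are uncertain. Among 49 heat shock genes 6 rose and 4 fell, against 11.9% and 3.88% of all genes. This balance turned with scaling, as there were 3 higher and 9 lower with median-ratio scaling, and when hearts were left out in turn 4 to 7 higher and 2 to 7 lower, with a change of over 1.5 times without 12 h hearts 1, 2 or 3 or 7 d hearts 2 or 3. The co-chaperone Dnajb1 measured 17.6, 26.6 and 19.6 RPKM at 12 h and 7.39, 7.67 and 7.14 RPKM at 7 d (log2 change -1.44 ± 0.17 (SE), adjusted p = 0.000122). The medians of the glutathione (0.08) and heat shock (0.05) lists turned negative under median-ratio scaling (-0.05 and -0.09), where that of all genes was 0.0075. Of the genes named here Ctsb alone lost its call with the Y-linked covariate.

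Genes of MHC class I presentation had the lowest median of any list with more than 10 tested genes, -0.82. Among 16 tested, 6 were lower, against 3.88% of all genes, and none of the others had an unadjusted limma p under 0.05 for an increase. B2m, the constant light chain of MHC class I, measured 802, 646 and 289 RPKM at 12 h and 274, 193 and 218 RPKM at 7 d (log2 change -1.23 ± 0.29 (SE), adjusted p = 0.0116), and the peptide transporter Tap2 16.97, 26.6 and 17.4 RPKM at 12 h and 8.85, 11.3 and 13.6 RPKM at 7 d (adjusted p = 0.0266). Both calls depended on single hearts, for B2m (adjusted p of 0.000356 to 0.0563 with hearts left out in turn, over the threshold without 12 h heart 2 or 7 d heart 2) and for Tap2 (adjusted p of 0.019 to 0.12 with hearts left out in turn, over the threshold without 12 h heart 2 or 7 d hearts 1 or 2). The 12 h hearts disagreed among themselves, as heart 3 lay next to the 7 d hearts for B2m. The decreases numbered 0 to 13 with hearts left out in turn, moving over 1.5 times without 12 h hearts 1, 2 or 3 or 7 d hearts 1, 2 or 3, and none was kept with the Y-linked covariate. There were 0 higher and 11 lower with median-ratio scaling. Iigp1, an interferon-induced GTPase, measured 57.3, 51.3 and 6.22 RPKM at 12 h and 8.48, 3.18 and 4.32 RPKM at 7 d, where heart 3 lay within the 7 d range (adjusted p = 0.0267). Its call depended on single hearts (adjusted p of 0.00053 to 0.114 with hearts left out in turn, over the threshold without 12 h hearts 1 or 2 or 7 d hearts 2 or 3) and was not kept with the Y-linked covariate. No other of the 37 interferon response genes passed, and decreases among them numbered 0 to 10 with hearts left out in turn, moving over 1.5 times without 12 h hearts 2 or 3 or 7 d hearts 2 or 3.

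Of 26 SR and related splicing factors Srsf6 alone fell, against 3.88% of all genes. Srsf6 measured 65.6, 70.1 and 73.3 RPKM at 12 h and 50.3, 55.3 and 57.3 RPKM at 7 d (adjusted p = 0.0153). Its call depended on single hearts (adjusted p of 0.0115 to 0.0546 with hearts left out in turn, over the threshold without 12 h hearts 2 or 3 or 7 d heart 1), and 2 other members had an unadjusted limma p under 0.05 for an increase. Among 22 hnRNP genes 3 rose and 2 fell, against 11.9% and 3.88% of all genes. The counts were 1 higher and 2 lower with median-ratio scaling, and when hearts were left out in turn 1 to 5 higher and 0 to 2 lower, with a change of over 1.5 times without 12 h hearts 2 or 3 or 7 d hearts 1, 2 or 3. Hnrnpll measured 8.72, 7.53 and 7.41 RPKM at 12 h and 13.2, 13.2 and 12.7 RPKM at 7 d (adjusted p = 0.00047). Pcbp2, a poly(C)-binding protein, measured 156, 171 and 144 RPKM at 12 h and 115, 113 and 125 RPKM at 7 d (adjusted p = 0.0134). The latter call depended on single hearts (adjusted p of 0.0149 to 0.066 with hearts left out in turn, over the threshold without 12 h heart 2 or 7 d heart 2). Decay and deadenylation factors gave 4 increases and 4 decreases among 40, against the same shares of all genes. The counts were 2 higher and 7 lower with median-ratio scaling, and when hearts were left out in turn 1 to 8 higher and 0 to 5 lower, with a change of over 1.5 times without 12 h hearts 1, 2 or 3 or 7 d hearts 1, 2 or 3. The deadenylase Cnot8 measured 21.7, 20.9 and 19.7 RPKM at 12 h and 28.3, 28.1 and 29.8 RPKM at 7 d (adjusted p = 0.0114). The median log2 changes of the SR, hnRNP and decay lists were 0.02, 0.17 and 0.09, beside 0.13 for all genes. Those of the SR and decay lists turned negative under median-ratio scaling (-0.11 and -0.04), where that of all genes was 0.0075. None of the 4 genes named here kept its call with the Y-linked covariate.

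Smaller lists of regulators and of lipid, protein and NAD metabolism gave few calls, and over all genes 11.9% rose and 3.88% fell. Lss, lanosterol synthase of the cholesterol route, measured 0.85, 0.73 and 0.44 RPKM at 12 h and 1.82, 1.8 and 1.42 RPKM at 7 d (log2 change 0.90 ± 0.15 (SE), adjusted p = 0.00149), and 2 of 32 cholesterol and fatty acid synthesis genes rose and 2 fell, with 2 higher and 4 lower with median-ratio scaling, and when hearts were left out in turn 2 to 5 higher and 1 to 3 lower, with a change of over 1.5 times without 12 h hearts 1 or 2 or 7 d hearts 2 or 3. Scd4, a stearoyl-CoA desaturase with close copies that make its reads uncertain, measured 6.05, 4.42 and 4.07 RPKM at 12 h and 1.59, 1.38 and 1.51 RPKM at 7 d (adjusted p = 0.000453). Among 33 targets of ATF4, the transcription factor of amino acid shortage, 4 rose and 2 fell, with 2 higher and 4 lower with median-ratio scaling, and when hearts were left out in turn 2 to 6 higher and 2 to 5 lower, with a change of over 1.5 times without 12 h hearts 1 or 2 or 7 d heart 2. Atf4 itself fell, at 50.1, 63.5 and 70.95 RPKM at 12 h and 43.1, 42.9 and 41.05 RPKM at 7 d (adjusted p = 0.00743). Slc3a2, an amino acid transporter subunit, measured 20.6, 32.05 and 30.2 RPKM at 12 h and 16.4, 14.9 and 16.5 RPKM at 7 d (adjusted p = 0.00513). In the NAD list 3 of 19 rose and 1 fell, with 3 higher and 4 lower with median-ratio scaling, and when hearts were left out in turn 2 to 5 higher and 1 to 2 lower, with a change of over 1.5 times without 12 h heart 1 or 7 d heart 1. Parp3, an ADP-ribosyltransferase, measured 13.8, 17.3 and 17.2 RPKM at 12 h and 24.7, 30.4 and 32.7 RPKM at 7 d (adjusted p = 0.00513). Nmnat3, an enzyme of NAD synthesis, measured 6.35, 6.6 and 5.25 RPKM at 12 h and 3.16, 3.65 and 3.59 RPKM at 7 d and fell (adjusted p = 0.0104). None of these 6 genes overlapped between groups, as was usual for called genes, and Lss alone kept its call with the Y-linked covariate.

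Among 38 insulin, IGF and mTOR genes 2 rose and none fell (limma), against 11.9% and 3.88% of all genes, with 2 decreases at an unadjusted p under 0.05. The counts were 2 higher and 3 lower with median-ratio scaling, and when hearts were left out in turn 2 to 10 higher and 0 to 2 lower, with a change of over 1.5 times without 12 h heart 1. Pik3ip1, a brake on PI3 kinase, measured 18.04, 13.2 and 15.4 RPKM at 12 h and 27.2, 33.5 and 35.3 RPKM at 7 d (log2 change 1.02 ± 0.21 (SE), adjusted p = 0.00513). Rptor, the raptor subunit of mTOR complex 1, measured 7.02, 6.0 and 5.03 RPKM at 12 h and 9.66, 10.3 and 9.89 RPKM at 7 d (adjusted p = 0.00438). Of 19 calcineurin and NFAT genes 2 rose and 1 fell, with 0 higher and 2 lower with median-ratio scaling, and when hearts were left out in turn 0 to 6 higher and 1 lower, with a change of over 1.5 times without 12 h hearts 1, 2 or 3 or 7 d hearts 1, 2 or 3. Of 32 cardiac transcription factors 1 rose and 1 fell, with 1 higher and 2 lower with median-ratio scaling, and when hearts were left out in turn 0 to 6 higher and 0 to 1 lower, with a change of over 1.5 times without 12 h hearts 1, 2 or 3 or 7 d hearts 1, 2 or 3. Of 26 ER chaperone genes 2 rose and 1 fell, with 1 higher and 2 lower with median-ratio scaling, and when hearts were left out in turn 1 to 6 higher and 0 to 1 lower, with a change of over 1.5 times without 12 h hearts 1, 2 or 3 or 7 d hearts 2 or 3. Of 44 proteasome genes 2 rose and 3 fell, with 1 higher and 6 lower with median-ratio scaling, and when hearts were left out in turn 1 to 3 higher and 1 to 5 lower, with a change of over 1.5 times without 12 h hearts 2 or 3 or 7 d hearts 1, 2 or 3. P4hb, the protein disulfide isomerase of the ER, measured 58.5, 61.1 and 57.2 RPKM at 12 h and 74.9, 78.9 and 90.3 RPKM at 7 d (adjusted p = 0.00424). Psmd13, a proteasome lid subunit, measured 37.1, 40.8 and 38.1 RPKM at 12 h and 53.8, 52.6 and 53.3 RPKM at 7 d (adjusted p = 0.00216). None of these 4 genes overlapped between groups, as was usual for called genes, and each lost its call with the Y-linked covariate.

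The remaining genes with the largest changes belonged to no list. Amy1, an amylase, measured 9.28, 9.82 and 8.29 RPKM at 12 h and 2.78, 1.91 and 1.8 RPKM at 7 d, 4.22-fold lower (adjusted p = 1.32e-05), and close copies make its reads uncertain. Mrgprh, an orphan G protein-coupled receptor, measured 7.24, 6.93 and 5.54 RPKM at 12 h and 1.57, 1.26 and 1.65 RPKM at 7 d (log2 change -1.82 ± 0.12 (SE), adjusted p = 2.08e-06). Pkd2l2, a polycystin-family gene, measured 3.89, 3.39 and 3.1 RPKM at 12 h and 0.78, 0.63 and 0.54 RPKM at 7 d (adjusted p = 6.17e-06). Lypd2 measured 4.52, 6.36 and 4.86 RPKM at 12 h and 1.4, 0.72 and 1.61 RPKM at 7 d (adjusted p = 0.00014). The rule that chose these 4 genes required every 7 d heart to lie below every 12 h heart. Prnd, a prion-like gene, measured 0.81, 1.3 and 0.73 RPKM at 12 h and 3.1, 6.89 and 7.05 RPKM at 7 d, 6.0-fold higher (adjusted p = 0.00121), a call lost with the Y-linked covariate.

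Hagh, Anxa5 and Pdzd3 were chosen after their values were seen, for their small error and for passing with title code and Y-linked mRNA together. Hagh, the glyoxalase II of methylglyoxal removal, measured 40.7, 41.1 and 37.7 RPKM at 12 h and 102, 113 and 113 RPKM at 7 d (log2 change 1.45 ± 0.10 (SE), adjusted p = 2.08e-06). Anxa5, annexin A5, measured 66.2, 79.7 and 69.6 RPKM at 12 h and 158, 173 and 160.2 RPKM at 7 d (adjusted p = 2.75e-06). Pdzd3, a PDZ scaffold, measured 1.76, 1.83 and 2.1 RPKM at 12 h and 6.64, 7.04 and 6.98 RPKM at 7 d (adjusted p = 2.11e-06). For each of the 3 the groups lay far apart, with 72 h means of 68.6 ± 9.13, 81.4 ± 3.41 and 3.7 ± 0.516 RPKM.

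Of 10 cardiomyocyte markers 1 rose and 4 fell, against 11.9% and 3.88% of all genes. Their sum was 55950 to 62770 RPKM at 12 h and 51050 to 53680 RPKM at 7 d. No fibroblast, smooth muscle or macrophage marker passed among 13, 13 and 17 tested (limma), and at an unadjusted p under 0.05 there were 2 fibroblast markers, 1 in each direction. Summed macrophage markers ranged from 144 to 228 RPKM at 12 h and from 154 to 209 RPKM at 7 d, and summed endothelial markers from 1473 to 1712 and from 1367 to 1661 RPKM. Of 18 endothelial markers only Rgcc fell (adjusted p of 0.0109 to 0.106 with hearts left out in turn, over the threshold without 12 h hearts 2 or 3 or 7 d hearts 1 or 3), and the call was lost with the Y-linked covariate. Of 14 lymphocyte markers in the table, 1 reached the minimum level, with a sum of 4.34 to 5.66 RPKM at 12 h and 3.29 to 4.34 RPKM at 7 d. Among adipocyte markers 4 of 7 tested fell, against 3.88% of all genes, with a median of -0.92. There were 0 higher and 4 lower with median-ratio scaling, and when hearts were left out in turn 0 higher and 1 to 4 lower, with a change of over 1.5 times without 12 h heart 2 or 7 d heart 2, and none of the 4 calls was kept with the Y-linked covariate (median -0.41). Adipoq, which encodes the fat cell hormone adiponectin, measured 2.01, 3.02 and 2.23 RPKM at 12 h and 1.34, 0.69 and 0.6 RPKM at 7 d (adjusted p = 0.0104). Its call depended on 1 heart (adjusted p of 0.00538 to 0.0507 with hearts left out in turn, over the threshold without 12 h heart 2), and the lipid genes Scd1 and Lipe, which were counted in that list too, also fell. Summed adipocyte markers were 888 to 993 RPKM at 12 h and 788 to 876 RPKM at 7 d. The part of fat tissue in the change of fuel genes was not tested.

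Ddx3y, an RNA helicase on the Y chromosome, was listed at 0 in all 12 h hearts and at 36.2, 28.2 and 26.02 RPKM at 7 d, and Eif2s3y, a translation factor subunit, at 0 and at 30.9, 22.8 and 25.01 RPKM. Kdm5d was likewise listed at 0 and at 4.1, 3.19 and 3.5 RPKM, and Uty measured 0.06, 0.05 and 0.03 RPKM at 12 h and 6.56, 5.13 and 4.1 RPKM at 7 d. All 4 tested Y-linked genes were called higher. Eif2s3x, the X-linked partner that escapes inactivation, measured 36.8, 30.8 and 27.8 RPKM at 12 h and 19.7, 16.98 and 17.2 RPKM at 7 d (adjusted p = 0.0298). Its call depended on single hearts (adjusted p of 0.0436 to 0.1 with hearts left out in turn, over the threshold without 12 h hearts 1 or 2 or 7 d hearts 2 or 3), and no other of 6 such genes passed. Over the 314 tested X-linked genes, 29 rose and 16 fell, against 11.9% and 3.88% of all genes.

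**Figure D5:**
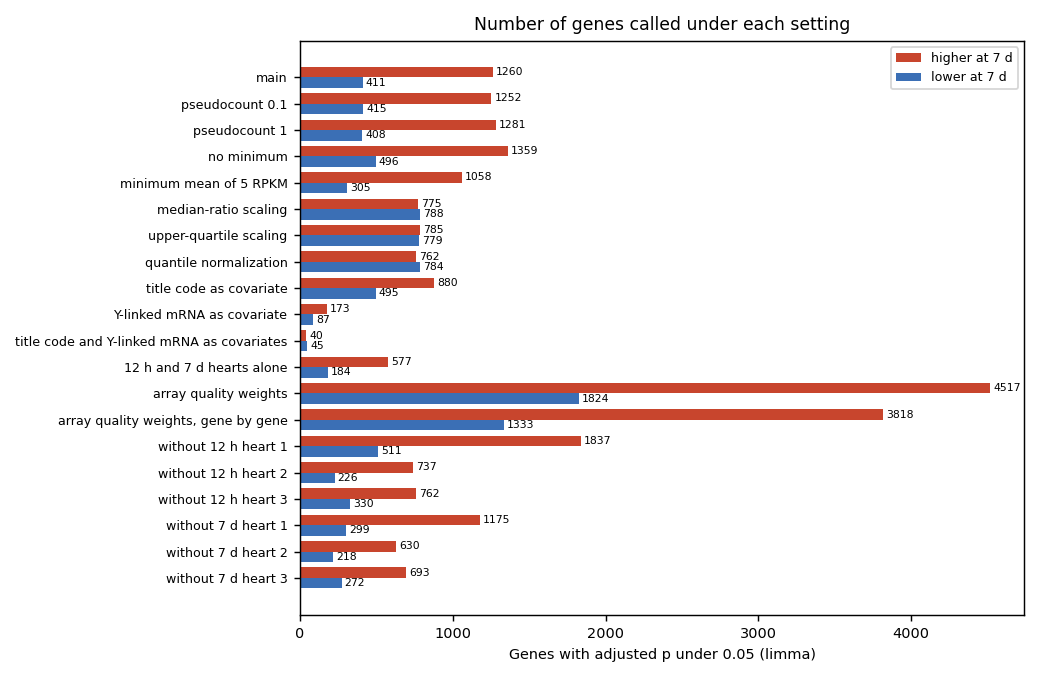
Bars from 0 give the number of genes called higher (red) and lower (blue) at 7 d by limma under the reported fit and each alternative. Counts run from 40 higher and 45 lower with title code and Y-linked mRNA as covariates to 4517 higher and 1824 lower with array quality weights, around the reported 1260 and 411.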

How the data were processed

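Poly(A)+ RNA from ventricles was sequenced as paired ends. The authors mapped reads to mm9 with Bowtie and TopHat (versions not given in the sources used here), kept uniquely mapping reads and deposited RPKM per RefSeq gene, scaled by reads outside ribosomal and mitochondrial sequence. Read totals are not in the table and could not be recovered from values with 2 decimals, so depth is unknown and precision rests on the spread between hearts. Strand-specific libraries were made, but whether counting used strand is not stated.

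Groups came from the sample labels. A Celf1 cassette that the labels name for the induced animals, and a series design text about muscle, go against title, genotype and tissue and were set aside. Replicates are separate animals. The members, gene lists and tests were chosen with earlier results of these data known.

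Limma (3.58.1, R 4.3.3) with a mean-variance trend was fitted to log2(RPKM + 0.5) of all 15 hearts in 5 groups, and the contrast of 7 d minus 12 h was adjusted over 10606 genes (Benjamini-Hochberg, threshold 0.05). The fit was tested on simulated data. Log2 changes are on that scale, which understates changes of low genes, and folds are ratios of mean RPKM. Values after ± are SD (n = 3) for levels. The rule for named genes took the 10 largest increases and decreases among called genes without overlap, the 5 most abundant called genes each way, Celf2, Celf1, Mbnl1 and Mbnl2, the 4 members with the smallest adjusted p in each of 56 lists that had a call, members called against their list's majority, and sex-linked genes, of which a part is printed. Outside this rule Arntl, Clock, Dbp, Per2, Nppa, Btg2, Tnfrsf12a, Jun, Klf4, Col4a2, Prc1, Cdc20, Ccnb2, Mcm5, Birc5, Hagh, Anxa5 and Pdzd3 were chosen after their values were seen. Some genes that the rule took are not reported here. Coordinates come from GENCODE M1 on mm9. Alternatives covered pseudocounts, minima, scalings, covariates, array weights and leaving out hearts.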

Additional observations from a re-analysis of the deposited data

How the results depend on the processing

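The Celf2 ratio stayed above 1 under every alternative tried, from 1.87 to 3.67. Counts of called genes moved more. Genes higher at 7 d numbered 775, 785 and 762 under median-ratio, upper-quartile and quantile scaling, and genes lower 788, 779 and 784. With Y-linked mRNA as covariate they were 173 and 87, with title code added 40 and 45, and over the 12 h and 7 d hearts alone 577 and 184. Array quality weights gave 4517 and 1824 (the estimate did not converge), and weights estimated gene by gene, chosen after seeing the data, 3818 and 1333. Leaving out single hearts gave 630 to 1837 higher genes and 218 to 511 lower genes. The counts of higher genes changed by over 1.5 times without 12 h hearts 2 (737) and 3 (762) and 7 d hearts 2 (630) and 3 (693), and of lower genes without 12 h heart 2 (226) and 7 d hearts 2 (218) and 3 (272). For these total counts, other minima and pseudocounts stayed within 1.5 times. Some lists moved more with no minimum. Decreases went from 9 to 5 for sarcomere genes, 2 to 0 for heart stress genes and 4 to 2 for decay factors. In 14 of 41 pathway lists, 62 called genes all lost their call with Y-linked mRNA (limma; 46 had an unadjusted p under 0.05 in the same direction). The list medians of 12 pathway lists changed sign under median-ratio scaling. The median of all genes moved down as well, from 0.13 to 0.0075. With Y-linked mRNA as covariate the log2 change reversed for Arntl (0.20), Eif2s3x (0.017), Eif2s3y (-0.20) and Nppa (-0.42), and Nppa also with array weights (-0.70, gene by gene -0.35). With title code and Y-linked mRNA together it reversed for Atf4 (0.0065), Eif2s3y (-0.15), Gnai2 (-0.0919), Hcn2 (-0.0244), Pccb (-0.0239) and Tsc22d3 (0.10). Eif2s3y is part of the sum behind that covariate, so loss of its change in both fits follows from the construction. The causes for the other genes were not tested. No paired analysis was possible because the labels give these hearts no replicate numbers, and the 7 d and 12 h hearts share only title code A, 1 heart each.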
